A study of Mus musculus with 12 samples.

Results

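Nrf2, its inhibitor Keap1 and 8 classical Nrf2 target genes were followed in conditionally immortalized proximal tubule (PT) cells with and without the TGF-β type II receptor (TβRII), at rest and under H2O2. The members were taken by name, with earlier results of these data known, and for each one the transcript with the most counts, among those that an Ensembl identifier ties to its symbol, was read. They were Nfe2l2 (the gene of Nrf2), Keap1, Gclc, Gclm, Slc7a11, Srxn1, Txnrd1, Nqo1, Hmox1 and Osgin1, that is 10 of 25514 genes with a matched transcript, and all 10 passed the filter on low counts that left 12971 genes for testing.

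PT cells came from kidneys of male mice that carried floxed Tgfbr2 alleles and H2ts6, the Immorto-mouse transgene for a temperature-sensitive T antigen, under which cells divide at 33 °C and not at 37 °C. All 4 groups shared these alleles and 5 days at 37 °C before the experiment. The groups were TβRII flox/flox PT cells in normal culture medium (untreated), TβRII flox/flox PT cells after 24 h of H2O2 in serum-free medium, and TβRII-/- PT cells, derived from them by Cre recombinase in culture, under the same pair of conditions, with 3 libraries in each. The study's methods give the Cre as adeno-Cre and name no control virus, and they do not say how many lines stood for each genotype. A difference between genotypes cannot be told apart from a difference between lines or from an effect of the virus. The study's methods also describe 24 h without serum before the H2O2 was given. H2O2 and the removal of serum cannot be told apart either, and "H2O2" below stands for both. The sample labels give the dose as 200 mM, whereas the study's methods give it in μM. The labels do not say whether the 3 libraries of a group were separate cultures, and the study's methods speak only in general of repeats or biological replicates for work in culture, so p-values measure the spread between libraries, which may be technical.

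Nrf2 is a basic leucine zipper transcription factor whose level is set mainly by protein turnover. In resting cells Keap1 bridges Nrf2 to a Cul3 ubiquitin ligase that marks it for degradation; oxidants and electrophiles modify cysteines of Keap1, and Nrf2 then accumulates, pairs with small Maf proteins and binds antioxidant response elements near genes of glutathione synthesis, thioredoxin recycling, quinone reduction and heme breakdown. Bach1 occupies some of the same elements, most clearly at Hmox1, and represses them. Several targets also answer to other factors, such as Atf4 at Slc7a11. The proximal tubule has a high oxidative load and is a main site of Nrf2-dependent protection in the kidney. RNA counts report on the transcripts and not on the amount of Nrf2 protein.

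Promoter windows of the RefSeq annotation on GRCm38.p6, from 250 bases before to 50 bases after each start site, were held for 8 of the 10 genes in 10 windows, since Txnrd1 has 3. They were searched on both strands for the core of the antioxidant response element, TGACNNNGC, and for TGACTCA, the AP-1 element; TGACTCA followed by GC would count as both, and no window of these genes held that. Nfe2l2, Gclm and Txnrd1 held the core upstream of a start, Srxn1 held it only after its start, and Srxn1 and Osgin1 held TGACTCA. Among all 32851 windows, 12.4% held TGACNNNGC and 5.2% held TGACTCA. The stretches around the upstream matches in these 5 genes are shown, and the windows of Keap1, Nqo1 and Slc7a11 held neither motif. Capitals mark the match, which reads as its reverse complement where it lies on the other strand. The first base of the match lay 240 bases upstream of the start in Nfe2l2, 134 in Gclm, 92 in Txnrd1, 97 in Osgin1, and 102 and 45 in Srxn1.
Nfe2l2, chr2:75704869-75704913, minus strand: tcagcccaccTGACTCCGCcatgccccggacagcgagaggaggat
Gclm, chr3:122245397-122245457, plus strand: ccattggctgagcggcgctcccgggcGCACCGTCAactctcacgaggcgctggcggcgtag
Srxn1, chr2:152105396-152105511, plus strand: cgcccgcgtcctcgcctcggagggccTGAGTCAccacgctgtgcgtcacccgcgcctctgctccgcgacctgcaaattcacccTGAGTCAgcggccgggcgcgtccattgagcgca
Txnrd1, chr10:82859088-82859148, plus strand: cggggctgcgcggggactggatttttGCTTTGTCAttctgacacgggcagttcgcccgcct
Osgin1, chr8:119437024-119437082, plus strand: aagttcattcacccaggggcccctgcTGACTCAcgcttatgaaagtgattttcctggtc
A match describes these letters in this window and says nothing of binding by a factor.

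Counts on the chosen transcripts summed to between 15870155 and 20857618 per library, and values below are normalized counts, scaled by edgeR's TMM to a library of 17351835. Tgfbr2 itself was counted in every library. It held 8393 ± 843 normalized counts without and 6605 ± 220.3 with Cre, both untreated (SD, n = 3). With H2O2 it held 13633 ± 328 without and 7216 ± 97.7 with Cre. A count over the whole transcript does not check the loss of its floxed part. The study's methods state that the deletion was checked by immunoblotting and RNAseq. The cells kept some proximal tubule genes and not others. Of 11 markers, Lrp2, Aqp1 and Pax8 had group means of at least 4182, while Slc34a1, Slc22a6, Slc27a2, Miox and Hnf4a stayed under 10 reads in every library and Slc22a6 had none. The summed level of the list was 27380.3 to 33119 in untreated TβRII flox/flox and 21045 to 22503 in untreated TβRII-/- PT cells, and 35089 to 37887 and 21440.2 to 22882 with H2O2. By the edgeR test described below, 5 of the 6 tested markers were lower in untreated TβRII-/- PT cells, and Pax8 was higher (log2 fold change 0.26). With H2O2 in TβRII flox/flox PT cells Aqp1 rose (1.04), Pax8 fell (-0.32) and 4 markers, Lrp2 among them (0.03), did not pass the test. The sum of 5 epithelial genes was higher in TβRII-/- PT cells, at 2664 to 3040.2 in untreated TβRII flox/flox and 10771 to 11079 in untreated TβRII-/- PT cells. After H2O2 it was 2154 to 2317 and 8716 to 9242. Its members Cdh1 and Epcam had at most 12 reads in any TβRII flox/flox library. With H2O2 in TβRII-/- PT cells Cdh1 (log2 fold change 0.59) and Epcam (0.44) rose, while Krt8 (-0.68), Krt18 (-0.37) and Krt19 (-1.57) fell. Lists of other cell types held few reads. Of 8 distal tubule and collecting duct genes 7, of 6 fibroblast genes 3, of 4 endothelial genes 3 and of 5 leukocyte genes 4 stayed under 10 reads in every library, among them the defining markers Pecam1, Cdh5, Ptprc and Adgre1, so that 1 gene carried the distal (Scnn1a), the endothelial (Kdr) and the leukocyte sum (Cd68). In untreated TβRII flox/flox and TβRII-/- PT cells the sums were 41.2 to 67.3 and 265 to 287 for the distal, 53.8 to 68.4 and 16.5 to 29.3 for the fibroblast, 127 to 138 and 464 to 586 for the endothelial, and 139 to 147 and 231 to 253 for the leukocyte list. With H2O2 they were 55.8 to 67.0 and 69.2 to 88.5, 75.1 to 96.3 and 40.6 to 49.7, 22.7 to 26.4 and 39.3 to 62.6, and 141 to 153 and 222 to 273. Of the 3 fibroblast genes tested, Col1a1 (log2 fold change -1.56) and Pdgfrb (-2.74) were lower in untreated TβRII-/- PT cells. The third, Dcn, was higher (1.87), and all 3 had low counts. The markers above moved with genotype, with H2O2 or with both, and their part in the results was not tested.

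Per kilobase of transcript, the 10 genes spanned a 114-fold range in untreated TβRII flox/flox PT cells. Gclc, the catalytic subunit of the enzyme that makes the glutathione precursor γ-glutamylcysteine, stood at the top with 2368 ± 105 normalized counts per kilobase, followed by the thioredoxin reductase Txnrd1 with 1356 ± 75.8 (SD, n = 3). Slc7a11 with 26.4 ± 2.39 and Nqo1 with 20.8 ± 3.49 were last. The order in between was Hmox1, Nfe2l2, Keap1, Gclm, Osgin1 and Srxn1, and in this group no neighbours overlapped. In untreated TβRII-/- PT cells Gclc at 3803 ± 68.4 and Txnrd1 at 3306 ± 58.7 remained first and Nfe2l2 came next at 1046 ± 32.6, while Srxn1 went from the eighth place to the fifth and Slc7a11 became the lowest at 31.9 ± 3.11. There the libraries of Gclm overlapped with those of Keap1, and those of Keap1 with those of Osgin1. With H2O2, Txnrd1 passed Gclc in both genotypes, at 1046 ± 46.0 against 766 ± 17.8 in TβRII flox/flox and 2392 ± 97.1 against 1371 ± 41.2 in TβRII-/- PT cells. Overlapping neighbours were then Nfe2l2 with Hmox1 and Slc7a11 with Nqo1 in TβRII flox/flox PT cells, and Gclc with Nfe2l2 and Osgin1 with Gclm in TβRII-/- PT cells. Annotated lengths were used, so a transcript with an unused long end is understated on this scale.

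**Figure D1:**
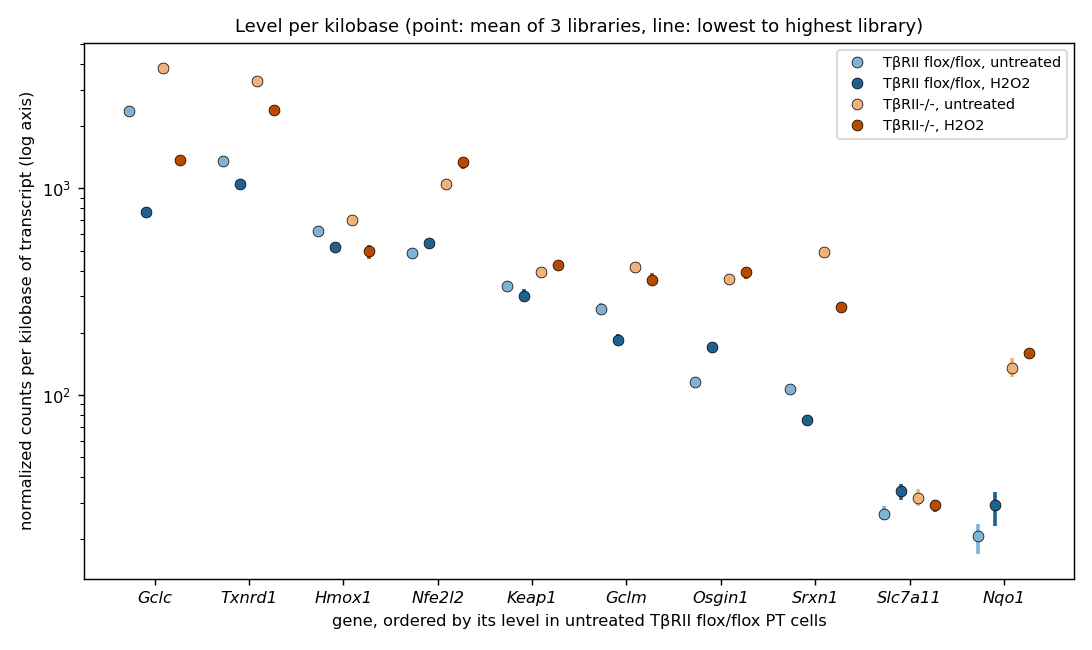
Level of each gene in normalized counts per kilobase of transcript, on a log axis, for the 4 groups; points are means of 3 libraries and lines run from the lowest to the highest library. Gclc and Txnrd1 led in every group, and Nqo1 moved from the last place in untreated TβRII flox/flox PT cells to above Slc7a11 in both TβRII-/- groups.

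Nfe2l2 (chromosome 2, 75675513 to 75704663, GRCm38.p6, as for all genes here; transcript ENSMUST00000102672) encodes Nrf2 itself. Untreated TβRII flox/flox PT cells held 1673, 1739 and 1808 normalized counts and untreated TβRII-/- PT cells 3677, 3703 and 3891. With H2O2 the libraries held 2039, 1893 and 1907 in TβRII flox/flox and 5055, 4953 and 4465 in TβRII-/- PT cells. The 4 groups did not overlap, and Nfe2l2 was lowest in untreated TβRII flox/flox and highest in H2O2-treated TβRII-/- PT cells. Keap1 (chromosome 9, 21229730 to 21239332; ENSMUST00000194542), the adaptor that delivers Nrf2 for degradation, stayed within a 1.41-fold range of group means. Its libraries held 1078, 1095 and 1066 normalized counts in untreated and 1039, 912 and 951 in H2O2-treated TβRII flox/flox PT cells, then 1286, 1299 and 1212 in untreated and 1365, 1366 and 1361 in H2O2-treated TβRII-/- PT cells. These groups did not overlap either. How many of all genes have 4 separate groups was not counted, so this separation is no trait of these genes. Annotated genes on the opposite strand overlap 18.5% (Gm68155) and 15.9% (Gm16754) of the Keap1 transcript and 7.74% (E030042O20Rik) of that of Nfe2l2. The study's methods name a stranded library kit. The strand setting of the counting was not given in the sources used here, so reads of these pairs may still be mixed.

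Gclc (chromosome 9, 77754535 to 77794489; ENSMUST00000034905) and Gclm (chromosome 3, 122245487 to 122267215; ENSMUST00000029769) encode the catalytic and the modifier subunit of glutamate-cysteine ligase, and Slc7a11 (chromosome 3, 50364936 to 50499087; ENSMUST00000029297) imports the cystine that the enzyme depends on. Gclc held 8191, 7783 and 8507 normalized counts in untreated TβRII flox/flox and 12844, 13301 and 13172 in untreated TβRII-/- PT cells. With H2O2 it stood at 2569.8, 2668 and 2683 in TβRII flox/flox and at 4785, 4823 and 4560.4 in TβRII-/- PT cells. Gclc was thus lower in treated TβRII-/- than in untreated TβRII flox/flox PT cells, with no overlap among the 4 groups. Gclm held 1620.1, 1566 and 1773 in untreated and 1258, 1132 and 1139 in treated TβRII flox/flox PT cells, against 2470.1, 2756 and 2726 in untreated and 2205, 2463 and 2185 in treated TβRII-/- PT cells. Both TβRII-/- groups of Gclm lay above both TβRII flox/flox groups, whatever the treatment. Slc7a11 was the flattest of the 10, with a 1.29-fold range of group means. Its libraries held 269, 234 and 229 normalized counts in untreated and 285, 319 and 343 in treated TβRII flox/flox PT cells, then 324, 291 and 267 in untreated and 279, 286 and 252 in treated TβRII-/- PT cells. Each Slc7a11 group overlapped with the next one in the order of means.

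Srxn1 (chromosome 2, 152105524 to 152111376; ENSMUST00000041500) encodes sulfiredoxin, which reactivates over-oxidized peroxiredoxins, and Txnrd1 (chromosome 10, 82833951 to 82897724; ENSMUST00000219442) encodes the cytosolic thioredoxin reductase. Srxn1 held 733, 788 and 795 normalized counts in untreated and 545, 529 and 555 in treated TβRII flox/flox PT cells. The TβRII-/- libraries of Srxn1 held 3660.1, 3502 and 3483 untreated and 1878, 2028 and 1857 with H2O2. The largest treated value of Srxn1 in TβRII-/- PT cells was thus well under the smallest untreated one and well above every TβRII flox/flox library. Txnrd1 held 4709.9, 4574 and 5090.0 in untreated and 3883, 3599 and 3603 in treated TβRII flox/flox PT cells, against 11449, 11746 and 11848 in untreated and 8669, 8632 and 8057 in treated TβRII-/- PT cells. Srxn1 and Txnrd1 shared the order of groups with Gclm, lowest in treated TβRII flox/flox and highest in untreated TβRII-/- PT cells.

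Nqo1 (chromosome 8, 107388225 to 107403205; ENSMUST00000003947), a quinone reductase widely used as a readout of Nrf2, was the lowest of the 10 in TβRII flox/flox PT cells on the per-kilobase scale. Untreated TβRII flox/flox libraries held 45.2, 57.9 and 63.5 normalized counts and treated ones 90.3, 82.6 and 61.9. TβRII-/- libraries held 327, 353 and 402 untreated and 416, 431 and 433 with H2O2. The TβRII flox/flox groups overlapped each other and stayed far under every TβRII-/- library. Osgin1 (chromosome 8, 119425882 to 119446257), an oxidative stress-induced growth inhibitor, had the same order of groups, with 255, 273 and 269 in untreated and 375, 410.1 and 400.0 in treated TβRII flox/flox PT cells, then 875, 808 and 839 in untreated and 952, 934 and 835 in treated TβRII-/- PT cells, where both conditions overlapped. Its transcript with the highest count, ENSMUST00000145604, is annotated as a retained intron. Hmox1 (chromosome 8, 75093618 to 75100593; ENSMUST00000005548), heme oxygenase 1, which opens heme and releases iron and biliverdin, held 960.5, 940.3 and 1035 in untreated and 808, 853 and 788 in treated TβRII flox/flox PT cells. TβRII-/- PT cells held 1145, 1105 and 1058 untreated and 836, 802 and 720.0 with H2O2. The treated groups of Hmox1 overlapped, and both lay under both untreated groups.

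**Figure D2:**
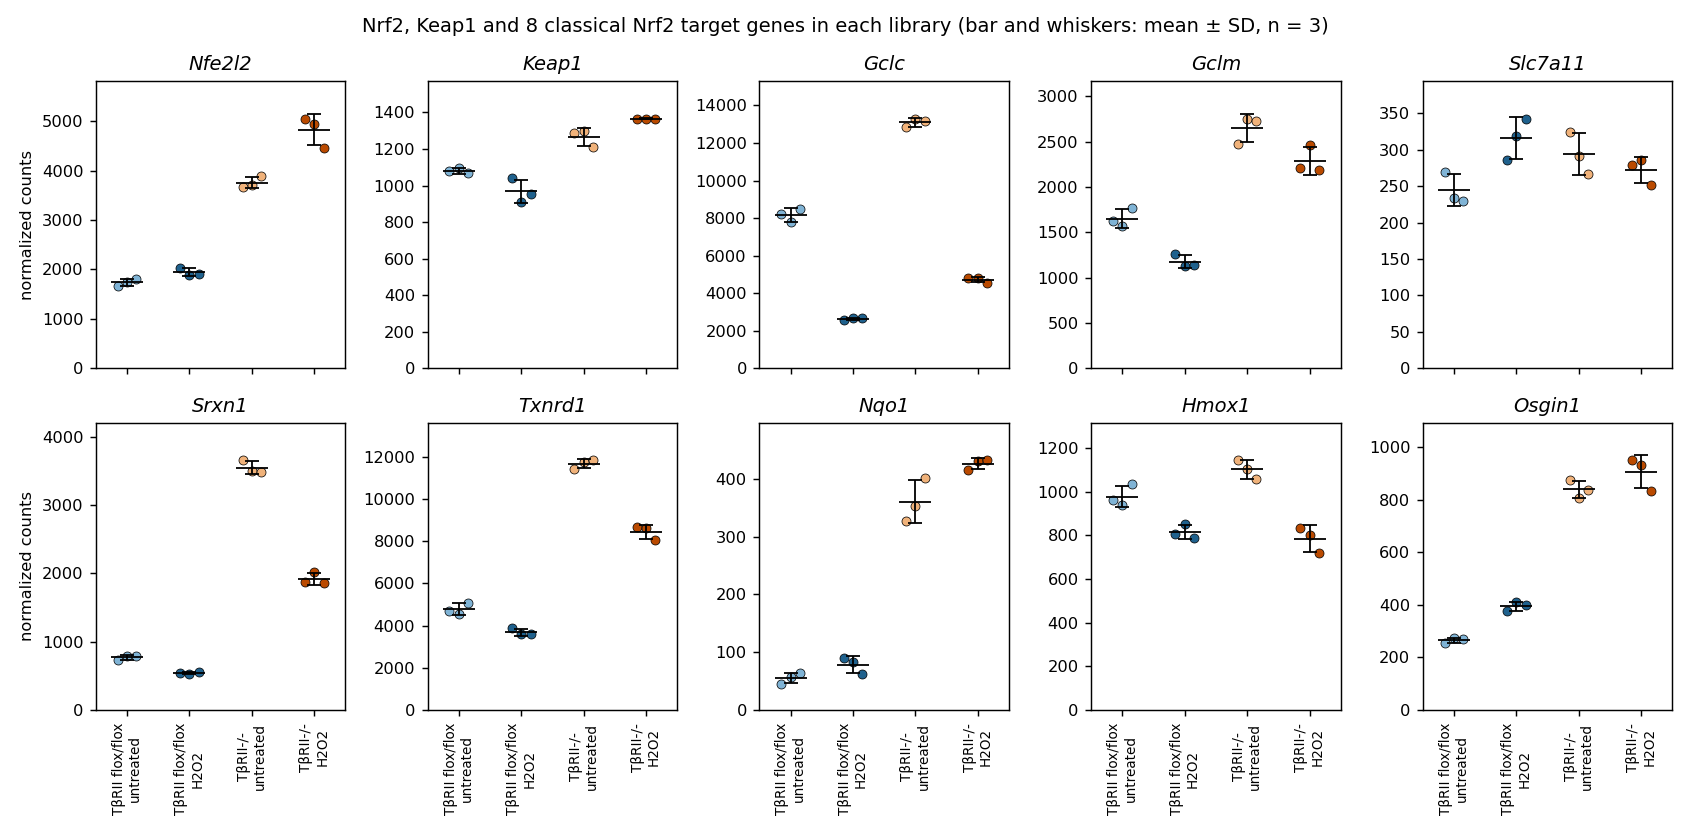
Normalized counts of the 10 genes in each library, with the 4 groups on the horizontal axis of each panel; horizontal bars and whiskers are means ± SD of 3 libraries. The 4 groups did not overlap for Nfe2l2, Keap1, Gclc, Gclm, Srxn1 and Txnrd1. The share of all genes with 4 separate groups was not counted. In the comparisons between 2 groups, 47.4% to 71.0% of all genes did not overlap. Every TβRII-/- library of Nqo1 and Osgin1 lay above every TβRII flox/flox library. Both treated groups of Hmox1 lay under both untreated groups, and neighbouring groups of Slc7a11 overlapped.

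The first comparison asked how the pathway stood in untreated TβRII-/- PT cells compared to untreated TβRII flox/flox PT cells. By edgeR's quasi-likelihood test, with p adjusted after Benjamini-Hochberg and a threshold of 0.05, all 10 genes were higher, where 33.3% of all genes tested were higher. The study's own limits were a p under 0.01 with a 1.5-fold change or more, and there 7 of 10 were higher against 15.7% of all genes. The libraries of both groups did not overlap for 9 of 10, against 65.3% of all genes. The median log2 fold change was 0.90 for the 10 genes and 0.01 for all genes tested. Nqo1 rose most, 6.51-fold (log2 fold change 2.70 ± 0.13, SE), followed by Srxn1 at 4.60-fold and by Osgin1 at 3.17-fold (1.66 ± 0.08, adjusted p = 1.2e-18). Txnrd1 rose 2.44-fold and Nfe2l2 2.16-fold. The subunits of glutamate-cysteine ligase moved by the same amount, Gclc by 1.61-fold and Gclm by 1.60-fold. Keap1 (log2 fold change 0.23 ± 0.06, adjusted p = 0.0016), Slc7a11 (0.27 ± 0.10, adjusted p = 0.022) and Hmox1 (0.17 ± 0.07, adjusted p = 0.024) passed the test by small amounts and did not reach 1.5-fold.

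The Keap1 call between untreated genotypes held in all 22 other settings tried, and those of Slc7a11 and Hmox1 did not. Slc7a11 lost its call without replicate 2 or 3 of untreated TβRII flox/flox or replicate 1 of untreated TβRII-/- PT cells, with log2 fold changes between 0.19 and 0.23 and adjusted p between 0.085 and 0.13. It was not called on sums over its transcripts (0.11, adjusted p = 0.37) or on its second transcript (-0.30, adjusted p = 0.14) either. Hmox1 lost it without replicate 1 or 2 of either group, with log2 fold changes between 0.14 and 0.17 and adjusted p between 0.053 and 0.11. The 5 annotated Slc7a11 transcripts ranged from -0.30 to 0.61 in this comparison. For each of the other 9 genes every annotated transcript pointed upward.

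With H2O2 in both genotypes, 8 of 10 genes were higher in TβRII-/- PT cells, against 35.1% of all genes tested, and 7 of 10 were higher at the study's limits, against 16.9%. The groups did not overlap for 8 of 10, the same 8 that were called, and this share was near the 71.0% of all genes. The median log2 fold change was 1.08, and 0.02 for all genes tested. Nqo1 (5.41-fold), Srxn1 (3.54-fold), Nfe2l2 (2.48-fold), Osgin1 (2.30-fold) and Txnrd1 (2.29-fold) were again the leading genes, with Nfe2l2 now above Osgin1 and Txnrd1. Gclm reached 1.94-fold and Gclc 1.79-fold. Keap1 was 1.41-fold higher (log2 fold change 0.50 ± 0.06, adjusted p = 1.7e-08). Hmox1 (-0.05, 95% confidence interval -0.19 to 0.09, adjusted p = 0.50) and Slc7a11 (-0.21, -0.41 to -0.01, adjusted p = 0.061) did not pass the test, and for Hmox1 that interval holds no change of 1.5-fold in either direction. Slc7a11 was called lower without replicate 1 of treated TβRII flox/flox PT cells (-0.31, adjusted p = 0.013), without each untreated TβRII flox/flox library in turn, and in 4 other settings (-0.66 to -0.22), among them sums over its transcripts (-0.33, adjusted p = 0.011).

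**Figure D3:**
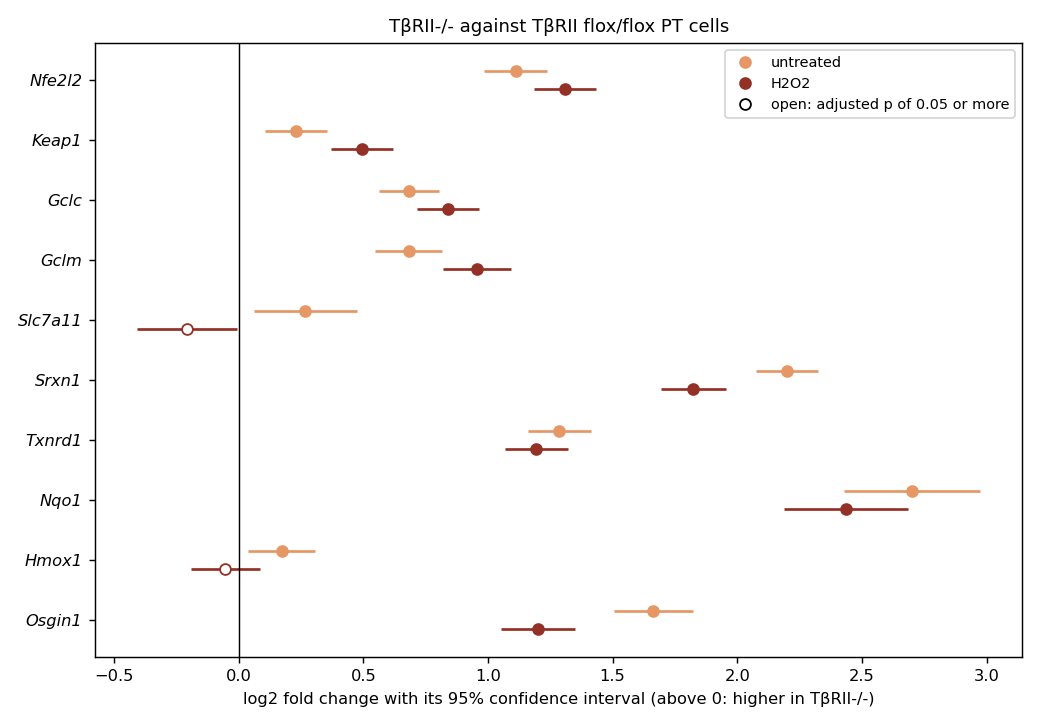
Log2 fold change of each gene between TβRII-/- and TβRII flox/flox PT cells, untreated and with H2O2, with 95% confidence intervals from the edgeR fit; open points had an adjusted p of 0.05 or more. Nqo1 and Srxn1 lie furthest to the right in both conditions, and Hmox1 and Slc7a11 lie near 0 with H2O2.

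H2O2 was given to mimic oxidative stress, and the next comparison took its effect in TβRII flox/flox PT cells. More of the classical targets fell than rose. All 10 genes passed the test, against 41.6% of all genes, with 4 higher, against 21.0%, and 6 lower, against 20.5%. The groups did not overlap for 9 of 10, against 47.4% of all genes. The median log2 fold change was -0.21, and 0.01 for all genes tested. Gclc fell by 1.63 on the log2 scale (SE 0.06, adjusted p = 1.3e-19), to 0.324 of its untreated level, and was the only one of the 10 past the study's limits, which 2.44% of all genes passed downward. Only 0.594% of the genes tested had a lower log2 fold change than Gclc. Srxn1 fell by 0.51, Gclm fell by 0.49, Txnrd1 fell by 0.37 and Hmox1 fell by 0.26. Osgin1 rose 1.49-fold (log2 fold change 0.57 ± 0.08) and Slc7a11 1.29-fold (0.37 ± 0.10, adjusted p = 0.0041).

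The other 3 calls of H2O2 in TβRII flox/flox PT cells were close to the threshold, and each was lost without single libraries. Nqo1 (log2 fold change 0.51 ± 0.17, adjusted p = 0.018) lost its call without replicate 1 of the untreated cells or replicate 1 or 2 of the treated ones, with values between 0.39 and 0.47. Nfe2l2 (0.16 ± 0.06, adjusted p = 0.037) lost it without replicate 1 or 2 of the untreated cells or replicate 1 of the treated ones, with values between 0.14 and 0.17, and in 4 other settings, with values between 0.15 and 0.31 and adjusted p between 0.0501 with a replicate block and 0.25 on its second transcript. Keap1 (-0.16 ± 0.06, adjusted p = 0.042) lost it without any of the untreated TβRII flox/flox libraries, without replicate 2 or 3 of the treated ones and without replicate 1 or 2 of treated TβRII-/- PT cells, with values between -0.16 and -0.11. It was also lost in 7 other settings, among them DESeq2, DESeq2's size factors and the replicate block, with values between -0.17 and -0.15 and adjusted p between 0.052 and 0.080. On its second transcript Slc7a11 lost its call (0.26, adjusted p = 0.25).

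In TβRII-/- PT cells H2O2 raised 2 of the 10 genes, against 20.5% of all genes, and lowered 5, against 19.1%. The groups did not overlap for 8 of 10, against 52.1% of all genes, and the median log2 fold change was -0.16, and 0.02 for all genes tested. Gclc again fell most, by 1.47 on the log2 scale (SE 0.06, adjusted p = 5.0e-19), and Srxn1 fell by 0.88 (SE 0.06, adjusted p = 5.6e-14). These 2 passed the study's limits, as 3.52% of all genes did downward. Hmox1 fell by 0.49, Txnrd1 fell by 0.47 and Gclm fell by 0.21. The Gclm call was lost without replicate 1 (-0.19, adjusted p = 0.0501) or replicate 3 (-0.18, adjusted p = 0.054) of treated TβRII-/- PT cells. Nfe2l2 rose 1.28-fold (log2 fold change 0.36 ± 0.06, adjusted p = 1.2e-05). Nqo1 passed at 0.24 ± 0.10 (adjusted p = 0.048), and this call was lost without any library other than replicate 3 of untreated TβRII-/- PT cells, with values between 0.17 and 0.26. It was also lost with DESeq2, with DESeq2's size factors, with a replicate block and on sums over transcripts, with values between 0.23 and 0.24 and adjusted p between 0.051 and 0.21. On its second transcript Nfe2l2 lost its call (0.35, adjusted p = 0.062). Keap1 (0.11, 95% confidence interval -0.01 to 0.23), Osgin1 (0.11, -0.03 to 0.25) and Slc7a11 (-0.11, -0.31 to 0.09) did not pass the test.

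**Figure D4:**
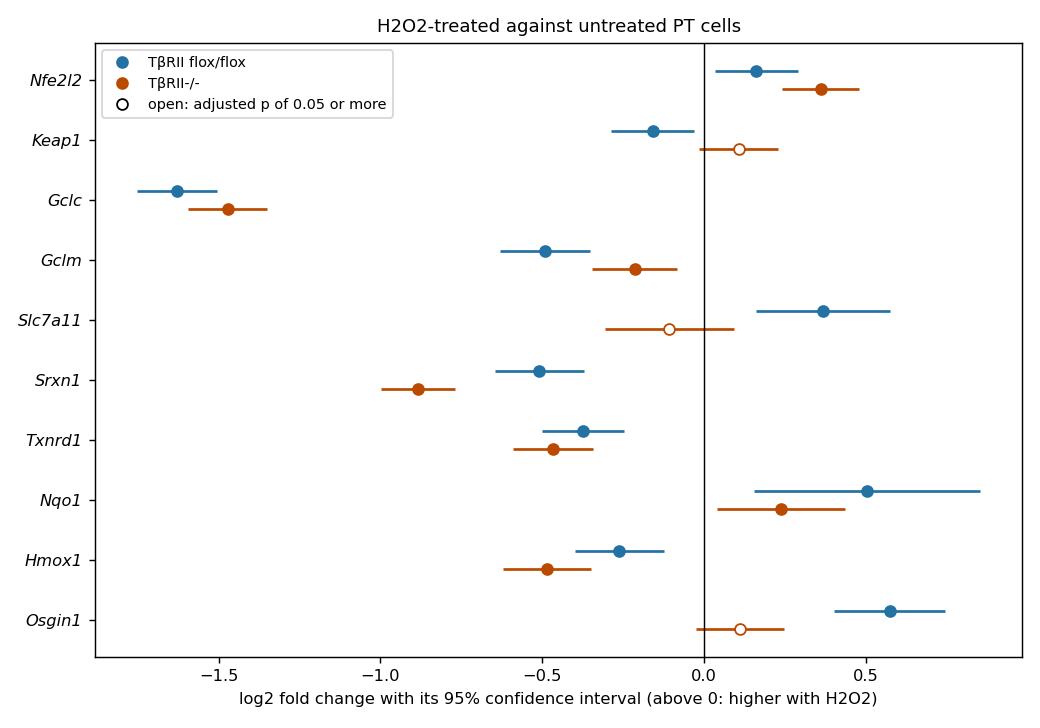
Log2 fold change of each gene with H2O2 in TβRII flox/flox and in TβRII-/- PT cells, with 95% confidence intervals from the edgeR fit; open points had an adjusted p of 0.05 or more. Gclc lies furthest to the left in both genotypes, and the intervals of Keap1, Gclm, Srxn1, Slc7a11 and Osgin1 do not overlap between genotypes, which is not the test of the difference.

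The interaction term asked directly whether H2O2 acted differently in the 2 genotypes, as the H2O2 effect in TβRII-/- minus that in TβRII flox/flox PT cells. It passed for 4 of the 10 genes, 3 with a lower value, against 6.28% of all genes, and 1 with a higher value, against 3.90%. Srxn1 fell more in TβRII-/- PT cells (-0.38 ± 0.09, adjusted p = 0.0050). The Osgin1 term was -0.46 ± 0.11 (adjusted p = 0.0049), from H2O2 effects of 0.57 in TβRII flox/flox and 0.11 in TβRII-/- PT cells, of which the latter did not pass the test. The Slc7a11 term was -0.47 ± 0.14 (adjusted p = 0.027) and the Keap1 term 0.27 ± 0.09 (adjusted p = 0.045). The Keap1 call was lost without any library other than replicate 1 of treated TβRII flox/flox PT cells, with values between 0.20 and 0.29, and in 6 other settings, with values between 0.25 and 0.28 and adjusted p between 0.054 and 0.077. That of Slc7a11 was lost without replicate 3 of treated TβRII flox/flox, replicate 1 or 2 of untreated TβRII-/-, or replicate 1 or 3 of treated TβRII-/- PT cells, with values between -0.49 and -0.40, and on sums over transcripts (-0.45) and the second transcript (-0.36), where Srxn1 (-0.27) lost its call too. Gclm (0.28 ± 0.09, adjusted p = 0.054) missed the threshold and passed it without replicate 1 of treated TβRII flox/flox (0.30) or replicate 3 of treated TβRII-/- PT cells (0.31). The other 5 were Nfe2l2 (0.20, adjusted p = 0.15), Hmox1 (-0.23, adjusted p = 0.14), Gclc (0.16, adjusted p = 0.26), Nqo1 (-0.27, adjusted p = 0.44) and Txnrd1 (-0.09, adjusted p = 0.57). The interval was widest for Nqo1, from -0.67 to 0.13. The count of 4 was 2 without replicate 3 of treated TβRII flox/flox, without replicate 1 or 2 of untreated TβRII-/- or without replicate 1 of treated TβRII-/- PT cells.

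Other genes of the pathway were taken as 7 lists of 67 genes, chosen with earlier results of these data known, and 62 were tested. Between untreated genotypes 38 rose and 10 fell in TβRII-/- PT cells, where 33.3% and 31.4% of all genes did, with a median log2 fold change of 0.38. All 6 genes of the NADPH supply list (G6pdx, Pgd, Taldo1, Tkt, Me1 and Idh1) rose, led by G6pdx (0.89) and Pgd (0.74) of the pentose phosphate pathway. Of 15 detoxifying enzymes and exporters 12 rose and 2 fell, led by the glutathione transferase Gsta4 (6.30) and the glucuronosyltransferase Ugt1a6a (4.53), with Akr1b8 (-0.50) and Nqo2 (-0.31) lower; Gsta and Ugt1a genes have near-identical relatives, so their counts are uncertain, and neither gene exceeded 12 reads in a TβRII flox/flox library. Of 9 glutathione genes 4 rose, led by 5-oxoprolinase Oplah (3.39) and glutathione reductase Gsr (1.30), and 3 fell, led by Ggt1 (-3.30) and Slc3a2 (-0.61), the partner subunit of Slc7a11. In the thioredoxin and peroxidase list 4 of 5 rose, led by Gpx4 (0.51) and Prdx6 (0.39), and in the heme and iron list 4 of 7 rose, led by Fth1 (0.95) and Hmox2 (0.85). Of 8 Atf4 pathway genes 6 rose, led by Trib3 (0.67) and Ddit3 (0.64), and Asns (-0.20) fell. Of the 12 regulators and partners of Nrf2, 2 rose, Rbx1 (0.40) and Gsk3b (0.15), and 4 fell, led by Nfe2l1 (-0.55) and Mafk (-0.53).

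With H2O2 in both genotypes, 40 of the 62 genes were higher in TβRII-/- PT cells and 8 lower, where 35.1% and 31.3% of all genes were, with a median of 0.40. The leading genes were Oplah (3.41) and Gsr (1.59) against Ggt1 (-2.21) and Slc3a2 (-0.71), Me1 (0.87) and G6pdx (1446 against 725 normalized counts), Gpx4 (0.59) and Prdx6 (0.49), Hmox2 (1.06) and Fth1 (0.85), Gsta4 (6.09) and Ugt1a6a (4.38) against Akr1b8 (-0.44), Trib3 (0.87) and Atf3 (0.56) against Asns (-0.18), and, among regulators, Bach2 (0.53) and Rbx1 (0.51) against Nfe2l1 (-0.69) and Mafk (-0.42).

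With H2O2 in TβRII flox/flox PT cells 12 of the 62 genes rose and 27 fell, where 21.0% and 20.5% of all genes did, with a median of -0.16. No glutathione, NADPH or thioredoxin gene rose, and 11 of these 20 fell, led by Ggt1 (-1.83) and Glrx (-0.92), Me1 (-0.50) and G6pdx (-0.34), and Prdx6 (-0.57) and Txn1 (-0.56). Of the Atf4 pathway 6 of 8 fell, led by Asns (-0.73) and Atf3 (-0.64), while Ddit3 (0.84) rose. Slc40a1 (0.87), the iron exporter ferroportin, and Blvrb (0.32) rose against Fech (-0.37) and Ftl1 (-0.36); Abcc3 (0.83) and Mgst1 (0.82) rose against Cbr1 (-0.39) and Nqo2 (-0.25); and Bach2 (0.69) and Nfe2l1 (0.31) rose against Maff (-0.59) and Dpp3 (-0.41). In TβRII-/- PT cells 13 rose and 24 fell, where 20.5% and 19.1% of all genes did, with a median of -0.11. The leading changes were Oplah (0.38) against Glrx (-0.86) and Cth (-0.55), Idh1 (0.25) against Pgd (-0.28) and G6pdx (-0.24), Txn1 (-0.54) and Prdx6 (-0.47), Slc40a1 (0.56) and Blvrb (0.38) against Blvra (-0.37) and Fth1 (-0.24), Gstm1 (0.31) and Abcc4 (0.23) against Gsta3 (-0.61) and Gsta4 (-0.43), Ddit3 (0.70) and Trib3 (0.42) against Chac1 (-0.99) and Asns (-0.70), and Bach2 (0.71) and Btrc (0.31) against Maff (-0.66) and Mafk (-0.23). The comparisons within a genotype share their untreated libraries with the comparison between untreated genotypes. The interaction term passed for 8 of 62, 6 higher and 2 lower, where 3.90% and 6.28% of all genes were, led by Atf3 (0.52) and Cbr1 (0.48) and by Mgst1 (-0.59) and Abcc1 (-0.31). That count was 3 to 5 without replicate 2 or 3 of untreated TβRII flox/flox, any treated TβRII flox/flox library, replicate 1 or 3 of untreated TβRII-/- or replicate 1 or 2 of treated TβRII-/- PT cells.

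**Figure D5:**
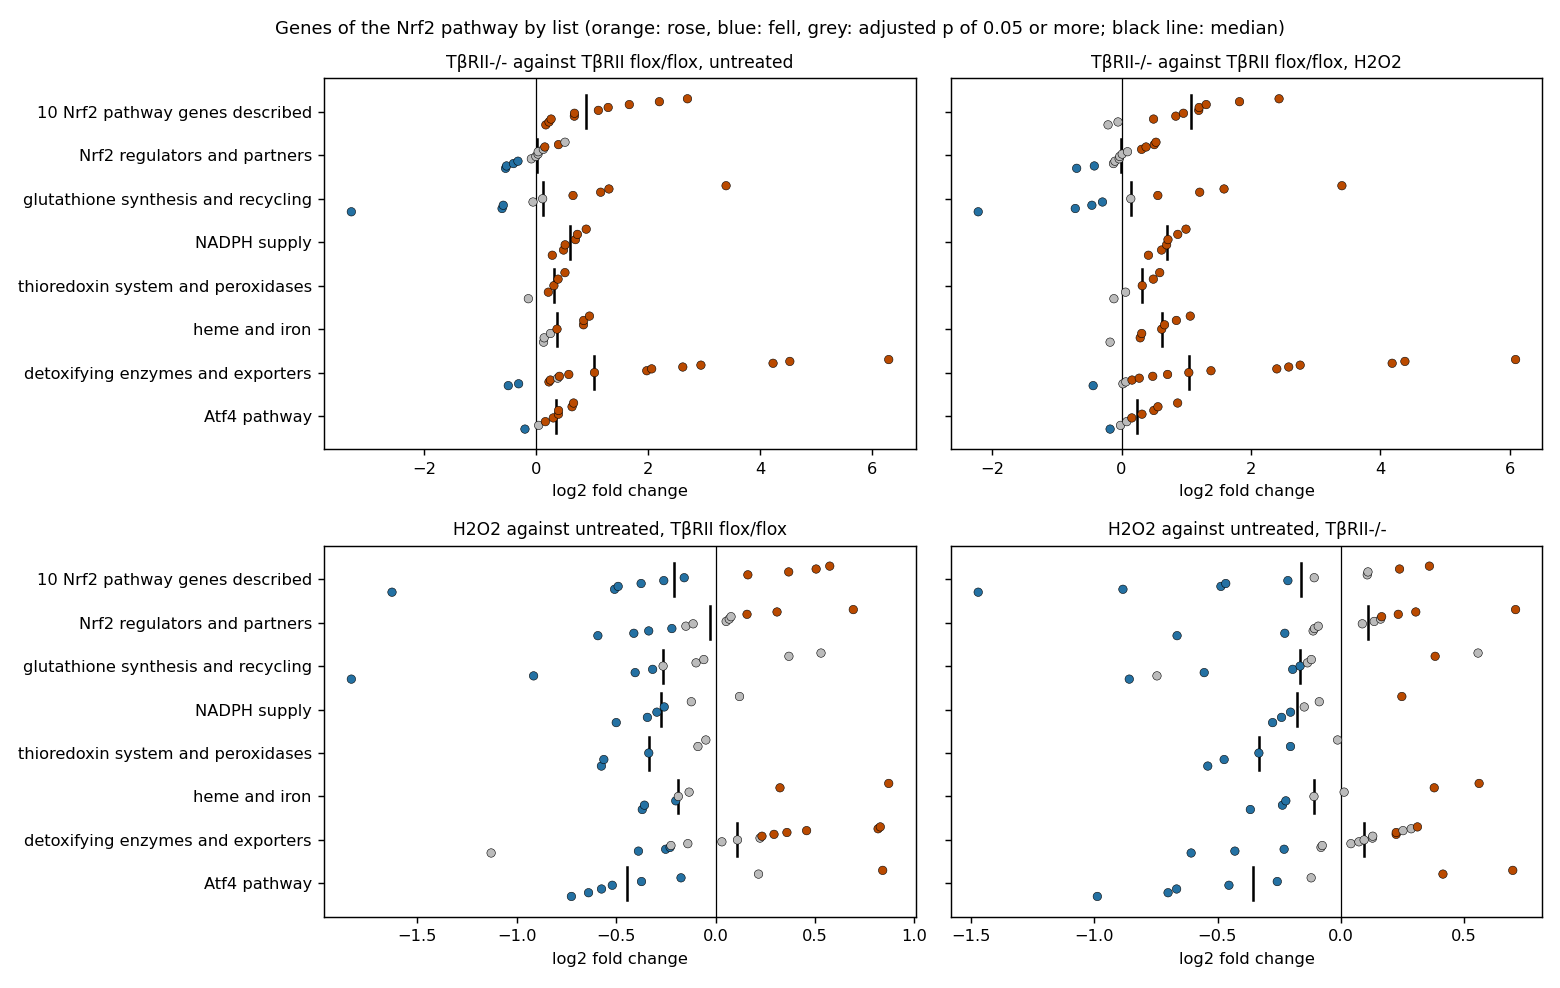
Log2 fold changes of the 10 genes and of the tested genes of 7 pathway lists in the 4 comparisons between groups; each point is a gene, coloured by whether it rose, fell or did not pass an adjusted p of 0.05, and black lines are list medians. Between genotypes the medians lie to the right of 0 except for regulators and partners with H2O2 (-0.01), and with H2O2 they lie to the left except for detoxifying enzymes in both genotypes (0.11 and 0.10) and regulators and partners in TβRII-/- PT cells (0.11).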

How the data were processed

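The deposited files hold whole-number counts per transcript, without normalization. Per the study's methods and the submitters' processing notes, the authors aligned reads with STAR to GRCm38.p6 and counted them with featureCounts; reads shared by transcripts of 1 gene were counted repeatedly. Identifiers tied 104820 of 106332 transcripts to genes of GENCODE M39, and the rest held 1.22% to 1.28% of counts. The transcript with the highest total stood for its gene; gene counts had been planned for.

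Counts were fitted in edgeR 4.0.16 (R 4.3.3, limma 3.58.1) with TMM, filterByExpr, 1 mean per group over all 12 libraries, and glmQLFTest; p was adjusted by Benjamini-Hochberg over 12971 genes. The fit was tried on simulated counts in which few genes changed, in a single group and with the same dispersion for all genes. Far more genes differed in these data, so the simulation does not vouch for the fit here. Confidence intervals are 95%. Sequences were searched in Python 3.11.15. Replicates differed by more than sampling noise (chi-square per gene 3.57 to 11.9). Deviations of same-numbered libraries from their group means correlated at 0.12, 0.14 and 0.14 between the untreated genotypes, and at over 0.1 in 1 of 15 pairs between the other groups. The replicate block within the untreated groups rests on this check, not on the labels, and such weak correlations do not establish a pairing. Alternatives included DESeq2 1.42.0.

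The members and lists were chosen with earlier results of these data known. In each list and comparison, the 2 genes that rose most and the 2 that fell most are named; for the interaction, 2 of each sign over all lists. Likeness of pattern was the root mean square difference of centred log2 group means (normalized counts plus 1) over protein-coding genes with a mean of at least 100. A gene of the planned proximal tubule marker list is not reported here.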

Additional observations from a re-analysis of the deposited data

Results flagged for a closer look

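The H2O2 effect differed between genotypes, by the interaction term of the edgeR fit, for 12 of the genes named. These were 4 of the 10 genes and 8 of the 62 tested pathway genes, where 10.2% of all genes tested passed. The calls of Keap1 and Slc7a11 and the count of 8 depended on single libraries, as given above. On the log2 scale, as the effect in TβRII-/- minus that in TβRII flox/flox PT cells, the term was -0.47 for Slc7a11, -0.46 for Osgin1, -0.38 for Srxn1 and 0.27 for Keap1, with the adjusted p-values given above. Among the other genes of the pathway it was -0.59 for Mgst1, 0.52 for Atf3, 0.48 for Cbr1, 0.38 for Nqo2, 0.35 for Me1, 0.31 for Dpp3, -0.31 for Abcc1 and 0.29 for Gsr, with adjusted p between 0.0014 for Cbr1 and 0.047 for Nqo2. Groups of 3 libraries were too small for a search for single outlying libraries.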

How the results depend on the processing

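Each fold change of the 10 genes was recomputed with DESeq2's size factors, with DESeq2, with no low-count filter, with a minimum of 10 counts in every library, with a replicate block, with only the groups compared, with a replicate block within the untreated groups (chosen after seeing the data, between untreated genotypes), without mtDNA-encoded genes, on sums over transcripts, on the transcript with the second highest total (Nqo1 has only 1 transcript), and without each library. Of 1045 values 956 kept direction and side of the threshold, 76 lost a call, 11 gained one and 2 turned in direction. The turns were Slc7a11 between untreated genotypes on its second transcript (-0.30, adjusted p = 0.14) and Hmox1 with H2O2 without replicate 3 of treated TβRII-/- PT cells (0.0044, adjusted p = 0.96; -0.11 to 0.0044 over all libraries left out). The interaction depended most on the setting: its 4 calls among the 10 genes became 2 in sums over transcripts, 1 on the second transcript and 2 to 5 without single libraries, and its 8 calls among pathway genes became 5, 5 and 3 to 10; the cause was not tested. Between the untreated genotypes same-numbered libraries correlated only weakly (0.12 to 0.14). This does not establish a pairing, since differently numbered libraries of untreated and treated TβRII flox/flox PT cells reached 0.32. The replicate block within the untreated groups kept 10 of 10 calls and gave 49 of 62 among pathway genes, and it changed no call of the 10 genes. In the other comparisons same-numbered libraries correlated at -0.30 to 0.10. There a block over all libraries gave 8 calls between treated genotypes, 8 and 6 for H2O2 in TβRII flox/flox and TβRII-/- PT cells, and 3 for the interaction. Depth limits Nqo1 most, whose TβRII flox/flox libraries held 45.2 to 90.3 normalized counts.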

Other observations

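Among 10285 protein-coding genes, those with group means most like Nfe2l2 were Amdhd2, Echdc3 and Fam53b, at root mean square differences of 0.028, 0.032 and 0.037 on the log2 scale over 4 groups. Those most like Nqo1 were the metallothionein Mt2 (0.065), with group means of 97.3 and 145 normalized counts in untreated and treated TβRII flox/flox and 695 and 836 in untreated and treated TβRII-/- PT cells, Malrd1 (0.074) and B4galt4 (0.076). Those most like Hmox1 were Rps27l (0.011), Taf9 (0.026) and Ak6 (0.027), of which Taf9 and Ak6 overlap each other in the genome and had nearly equal counts, so they cannot be counted as separate.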
